A study of Mus musculus with 10 samples.

Results

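The sites described here are 144 of the 32896 8-base words (8-mers, each merged with its reverse complement) that can be scored on protein binding microarrays. They carry the core of a bZIP binding site in which the cytosine of the central CpG has become a thymine. The first 6 bases of 3 octamers were taken: the cAMP response element (CRE), the site of the proline- and acid-rich (PAR) bZIP proteins, and the C/EBP site. Base 4 of each was changed to T, and every 8-mer with such a core on either strand is a member, which gives 48 members per core. The rule uses sequence alone and no measured value, but it was set with earlier results of these data known. All groups used the DNA-binding domain of a mouse bZIP protein fused to GST, expressed from plasmid in a cell-free transcription and translation mix, bound to double-stranded 44K Agilent arrays with a DeBruijn probe design and read in the Cy5 channel. The 10 arrays fall into 5 groups of 2. CEBPB(V285A) and CREB1(A297V), each a wild-type construct changed by site-directed mutagenesis, were bound to arrays methylated with the CpG methyltransferase M.SssI for 3 h and to unmethylated arrays, and wild-type CREB1 was bound to unmethylated arrays. Isolated domains on naked duplex DNA lack the rest of the protein, any partner and chromatin, and methylated CREB1 arrays and wild-type CEBPB were not analysed here.

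A bZIP domain is a basic region that contacts DNA followed by a leucine zipper that joins 2 monomers, and each monomer reads its own side of a short palindrome. CREB1 is an activator that responds to cAMP through the CRE, C/EBP proteins such as CEBPB direct differentiation and inflammatory genes, and the PAR proteins are known from circadian control of transcription in liver. A CpG at the centre of such a site can carry 5-methylcytosine, and loss of its amino group turns it into thymine, which leaves TpG on that strand and CpA where the other strand was hit. A TpG site is therefore the sequence left behind when a methylated CpG site has decayed.

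The octamers around which the results turn are shown with the central dinucleotide in capitals. The TpG forms come first, then the intact forms with the same outer bases; all 6 TpG forms are the TpG core followed by the last bases of one of the 3 octamers.
TpG form of the PAR octamer: ttaTGtaa
TpG form of the CRE octamer: tgaTGtca
TpG form of the C/EBP octamer: ttgTGcaa
CRE core with the PAR ending: tgaTGtaa
PAR core with the CRE ending: ttaTGtca
C/EBP core with the CRE ending: ttgTGcca
Intact PAR octamer: ttaCGtaa
Intact CRE octamer: tgaCGtca
Intact C/EBP octamer: ttgCGcaa
Intact CRE core with the PAR ending: tgaCGtaa
Intact C/EBP core with the CRE ending: ttgCGcca
The 3 palindromic octamers give the same 8-mer whichever strand is deaminated. The mixed octamers tgaTGtaa and ttaTGtca share 1 intact form, tgaCGtaa, and each is the CpA form of the other, so that the 144 members have 143 intact partners. Members of a core overlap in sequence and share probes, and are not independent measurements.

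Each value below is a Z-score, the median log2 signal of the probes that hold an 8-mer, centred on the median of all 8-mers of that array and divided by their scaled median absolute deviation. It is given as mean ± SD over the 2 arrays of a group unless both arrays are printed. Replicate arrays correlated across all 8-mers with r = 0.973 on methylated DNA with CEBPB(V285A) and r = 0.966 there with CREB1(A297V), at 0.969 and 0.872 for the same proteins on unmethylated DNA, and at 0.935 for CREB1. Median spot signal was 345 to 1857. Scores spread least on unmethylated DNA with CREB1(A297V): the top 8-mer exceeded the median of its array by 2.79 and 2.68 on the log2 scale, where the remaining 8 arrays gave 4.73 to 6.05. An identifier in the names of the deposited tables is shared by the CREB1 and unmethylated CREB1(A297V) arrays, another marks the unmethylated CEBPB(V285A) arrays and another all 4 methylated arrays. Differences on unmethylated DNA between CEBPB(V285A) and either CREB1(A297V) or CREB1, and between methylated and unmethylated DNA, therefore cannot be told apart from this identifier, whereas a TpG form and its intact form were always compared within an array. Nothing says that replicate arrays used separate protein preparations, so the p-values rest on array-to-array spread alone, and that spread may be technical.

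The PAR octamer in its TpG form was the strongest 8-mer without any CpG for CEBPB(V285A). On methylated DNA ttaTGtaa had Z-scores of 16.77 and 15.33 with CEBPB(V285A) and of 14.05 and 17.24 with CREB1(A297V). On unmethylated DNA it had 16.08 and 15.72 with CEBPB(V285A), 10.80 and 12.79 with CREB1(A297V), and 2.81 and 3.50 with CREB1. Both arrays of either mutant thus lay far above both CREB1 arrays. Among the 20349 8-mers that hold no CpG, ttaTGtaa ranked 1 for CEBPB(V285A) on methylated and on unmethylated DNA, 7 and 3 for CREB1(A297V), and 144 for CREB1. The 8-mer ranked 2 for CEBPB(V285A) in both DNA states was ttatgcaa, at 14.8 ± 0.685 on methylated and 14.3 ± 0.261 on unmethylated DNA; it is not a member and was named after its value was seen. The mixed octamers tgaTGtaa and ttaTGtca ranked 4 and 3 for CEBPB(V285A) in both states.

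For CREB1 the strongest of the CpG-free 8-mers was the TpG form of the CRE octamer. The octamer tgaTGtca had Z-scores of 10.11 and 10.43 with CEBPB(V285A) and 8.63 and 9.36 with CREB1(A297V) on methylated DNA. On unmethylated DNA it had 13.32 and 10.74 with CEBPB(V285A), 3.47 and 5.58 with CREB1(A297V), and 7.62 and 10.71 with CREB1. Both CREB1 values lay above both unmethylated CREB1(A297V) values and below both unmethylated CEBPB(V285A) values, the nearest of which differed from one of them by little. Within CREB1, tgaTGtca at 9.17 ± 2.19 stood above ttaTGtca at 5.28 ± 0.710, tgaTGtaa at 4.41 ± 0.0706 and ttaTGtaa at 3.16 ± 0.490. Within unmethylated CEBPB(V285A) the order was the other way round at its ends, with ttaTGtaa at 15.9 ± 0.256, ttaTGtca at 13.4 ± 0.0745, and tgaTGtaa at 12.3 ± 0.0823 next to tgaTGtca at 12.03 ± 1.82, which do not differ beyond their spread. With CREB1(A297V) the octamers with the PAR ending scored highest: on unmethylated DNA ttaTGtaa stood at 11.8 ± 1.41 and tgaTGtaa at 7.37 ± 1.47, while ttaTGtca at 5.38 ± 0.813 and tgaTGtca at 4.52 ± 1.49 were within their spread of each other.

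The TpG form of the C/EBP octamer scored below those of the CRE and PAR octamers on all 10 arrays. On methylated DNA ttgTGcaa had Z-scores of 7.06 and 6.11 with CEBPB(V285A) and 1.41 and 2.15 with CREB1(A297V). On unmethylated DNA the values were 4.62 and 4.30 with CEBPB(V285A), 0.03 and -0.19 with CREB1(A297V), and -0.46 and -0.45 with CREB1, so that this site was above the array median in every array of CEBPB(V285A) and below it in both arrays of CREB1. The same core with the CRE ending, ttgTGcca, lay between -1.47 and 0.20 on all 10 arrays. Of the 48 members with this core, the number with a mean Z-score of at least 3 was 1 for CEBPB(V285A) on methylated and 1 on unmethylated DNA, and 0 in the other 3 groups. That member was ttgTGcaa itself. The next with CEBPB(V285A) was attgTGca, at 2.85 ± 0.339 on methylated and 2.79 ± 0.108 on unmethylated DNA.

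A mean Z-score of at least 3 was reached by 47 of the 144 members with CEBPB(V285A) on methylated DNA (32.6%) and by 11 with CREB1(A297V) (7.64%). On unmethylated DNA it was reached by 33 with CEBPB(V285A) (22.9%), 5 with CREB1(A297V) (3.47%) and 13 with CREB1 (9.03%). The same level was reached by 2.38%, 2.72%, 1.70%, 1.78% and 0.835% of all CpG-free 8-mers in these 5 groups, in the same order. Over all 32896 8-mers it was reached by 3.28%, 2.90%, 3.50%, 1.68% and 2.69%. The 144 members include 14 that hold a CpG in the flank. By core, the median of the 48 PAR members was 3.17 ± 0.248 and that of the CRE members 2.65 ± 0.0468 with CEBPB(V285A) on methylated DNA, against 0.301 ± 0.0117 for the C/EBP members. With CREB1 the CRE members had the highest median, 1.66 ± 0.217, ahead of the PAR members at 1.13 ± 0.0462 and the C/EBP members at -0.190 ± 0.119.

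The bases outside the core went with a wide range of signal. Among the 16 CRE members that hold the core at their start, those with A as the second base after it had a median of 7.64 with unmethylated CEBPB(V285A) (n = 4, 2.46 to 12.3), against 0.683 for those with C (n = 4, 0.0471 to 1.01). For the PAR core the same medians were 8.57 with A (n = 4, 2.28 to 15.9) and 0.991 with C (n = 4, 0.300 to 1.81). In CREB1 the CRE medians were 3.17 with A and 0.548 with C. With CEBPB(V285A) and CREB1 the base directly before the CRE core went with the signal as well: with unmethylated CEBPB(V285A) the median was 3.84 for A (n = 8, 2.45 to 5.13), 3.55 for G, 1.85 for C and 0.397 for T (n = 8, -0.181 to 1.61), and with CREB1 it was 2.77, 2.60, 1.10 and 0.748. With unmethylated CREB1(A297V) the medians were 2.01 for A, 0.905 for G, 1.13 for C and 0.977 for T, so that A was again highest and the other three lay close together. No member with A there was as low as the highest member with T, for unmethylated CEBPB(V285A). These are descriptions of a handful of overlapping 8-mers, with no test.

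Set against the same flanks with an intact CpG, nearly all CRE and PAR members were bound less. The difference between the TpG form and the intact form was tested within arrays for all 28672 pairs of 8-mers that differ by a CpG turned into TpG, with limma over all 10 arrays and Benjamini-Hochberg adjustment over the table; a pair was called at an adjusted p below 0.05. On unmethylated DNA all 48 CRE and all 48 PAR members were called lower with CEBPB(V285A) and with CREB1, and 38 and 41 with CREB1(A297V). Over the 3 cores this made 133 of 144 lower and 2 higher with CEBPB(V285A), 93 lower and 3 higher with CREB1(A297V), and 119 lower and 3 higher with CREB1. Of all pairs, 24% were called lower and 25.9% higher with CEBPB(V285A), 14% and 29.6% with CREB1(A297V), and 27.4% and 23.9% with CREB1. The forms of a pair sit in different probes and calls in either direction were common, but the members' share of lower calls stood well above that of the table. Without replicate 2 of the unmethylated CREB1(A297V) arrays its count was 36 lower and 3 higher, and with the authors' deposited scores 16 lower and 4 higher.

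The size of the gap differed by core. The median difference over the CRE members, TpG minus CpG, was -10.42 with CEBPB(V285A), -2.36 with CREB1(A297V) and -11.61 with CREB1 on unmethylated DNA. For the PAR members it was -5.90, -2.56 and -5.58, and for the C/EBP members -1.38, -0.38 and -0.65, beside a median over all pairs of 0.04, 0.23 and -0.04. The CRE octamer itself gave 9.17 ± 2.19 as tgaTGtca and 30.8 ± 2.42 as tgaCGtca with CREB1, a difference of -21.64 ± 1.60 (SE, limma adjusted p = 1.48e-10). With CEBPB(V285A) the forms had 12.03 ± 1.82 and 23.2 ± 0.111, a difference of -11.20 ± 1.60 (SE, limma adjusted p = 3.79e-06). The CREB1 call held under all 10 alternatives, while the CEBPB(V285A) call is lost with the authors' scores and with another variance trend. The PAR octamer gave 15.9 ± 0.256 as ttaTGtaa and 25.5 ± 0.0367 as ttaCGtaa with CEBPB(V285A), a difference of -9.60 ± 1.81 (SE, limma adjusted p = 0.000124). This call too is lost with the authors' scores. Even the strongest TpG sites thus stayed below their own intact forms in every array.

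A ratio of signals, which does not depend on the spread of the array, gave the TpG forms as a percentage of their intact forms. These signals include background, which brings a ratio nearer to 100%. The CRE members had a median of 22.6% ± 1.94 with CEBPB(V285A), 81.4% ± 6.49 with CREB1(A297V) and 27.9% ± 0.764 with CREB1 on unmethylated DNA. The PAR members had 43.9% ± 2.52, 79.8% ± 1.60 and 55.0% ± 1.33. For the CRE octamer alone the signal at tgaTGtca was 21.0% ± 4.27 of that at tgaCGtca with CEBPB(V285A), 41.4% ± 2.95 with CREB1(A297V) and 9.56% ± 2.20 with CREB1, so that of these proteins CREB1 kept the smallest share on this octamer.

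The C/EBP members split. Of the 48, 37 were called lower than their intact forms with CEBPB(V285A), 14 with CREB1(A297V) and 23 with CREB1 on unmethylated DNA, and 9, 31 and 22 were not called. The octamer pair gave 4.46 ± 0.226 for ttgTGcaa and 16.2 ± 0.875 for ttgCGcaa with CEBPB(V285A), a difference of -11.72 ± 0.69 (SE, limma adjusted p = 4.34e-12). The corresponding signal was 19.3% ± 2.27 of the intact one. With CREB1 the forms had -0.457 ± 0.0107 and 2.36 ± 0.374, a difference of -2.81 ± 0.69 (SE, limma adjusted p = 0.00156), a call that is lost without CREB1 replicate 2 and with the authors' scores. Only C/EBP members were ever called higher than their intact form, 6 of them in at least 1 group, and each by little: ttgTGcga by 1.32 ± 0.35 with CREB1 (SE, limma adjusted p = 0.00296), where the intact form had 0.0685 ± 0.0415. That call is lost without CREB1 replicate 1, without the local window and with the authors' scores. Over all 5 groups, 37 CRE, 41 PAR and 4 C/EBP members were called lower in every group, and 7 C/EBP members in none. The matching counts were not made over all pairs, so these overlaps cannot be set against the table.

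On methylated arrays the intact form carries 5-methylcytosine, and the comparison is between TpG and methylated CpG. All 48 CRE and all 48 PAR members were again called lower with CEBPB(V285A), and 45 and 48 with CREB1(A297V). With the C/EBP members this made 131 of 144 lower with CEBPB(V285A) and 105 with CREB1(A297V), and 0 higher with either. With the authors' deposited scores the count for CREB1(A297V) was 57 lower and 0 higher. At an unadjusted p below 0.05 the members that differed in either direction were 132 and 111, but the share of all pairs at that threshold was not counted. At the adjusted threshold, 16.1% of all pairs were called lower and 31.2% higher with CEBPB(V285A), and 11.8% and 34.7% with CREB1(A297V). The median differences were -5.81 and -4.42 for the CRE members, -4.81 and -4.45 for the PAR members and -1.32 and -0.42 for the C/EBP members. The PAR octamer had 16.1 ± 1.02 as ttaTGtaa and 22.3 ± 2.32 in its methylated intact form with CEBPB(V285A), a difference of -6.25 ± 1.81 (SE, limma adjusted p = 0.00668), which is lost without either of these 2 arrays. With CREB1(A297V) it had 15.6 ± 2.25 and 26.6 ± 2.54, a difference of -10.97 ± 1.81 (SE, limma adjusted p = 3.83e-05). Both calls at the PAR octamer are lost with the authors' scores. The C/EBP octamer had 6.59 ± 0.673 as ttgTGcaa and 18.2 ± 0.493 in its methylated intact form with CEBPB(V285A), or 12.4% ± 1.26 of the signal. Thymine and 5-methylcytosine carry a methyl group at the same ring position. With CEBPB(V285A) and with CREB1(A297V) the mean score of the methylated CpG lay above that of TpG at every CRE and PAR member. With CREB1(A297V) 3 of these CRE differences were not called.

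Scoring the 6-base cores themselves placed TpG among the 16 possible central dinucleotides. The TpG, CpG and CpA 6-mers rest on 565 to 586 probes each, and a score is the median over all flanks. For the CRE core with CEBPB(V285A), TpG ranked 3 in both DNA states, after CpG and CpA; with CREB1 it also ranked 3. With CREB1(A297V) it ranked 4 in both DNA states, after CpG, ApA and CpA, at 1.97 ± 0.0324 on methylated and 1.85 ± 0.387 on unmethylated DNA. The values with CREB1 were 2.56 ± 0.327 for tgaTGt, 19.1 ± 3.54 for tgaCGt and 3.67 ± 0.992 for tgaCAt. For the PAR core TpG ranked 3 with CEBPB(V285A) in both states, 5 and 6 with CREB1(A297V) on methylated and unmethylated DNA, and 4 with CREB1. For the C/EBP core it ranked 4, 5, 6, 6 and 9 in the 5 groups, and the group means of its Z-score lay between -0.269 and 0.454.

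Deamination of the other strand gives CpA on the strand read here. The CpA form keeps base 4, so the side of the palindrome that the 6-base core holds in full stays intact. The TpG form changes base 4, and only some flanks complete the other side of the palindrome. The direction of the calls below, and the order of TpG and CpA among the 6-base cores, is therefore tied to this choice of core. It cannot show a preference between TpG and CpA, and the part of this choice was not tested. The members formed 140 pairs with a CpA form that is another 8-mer. The pair of tgaTGtaa and ttaTGtca was counted once, at the CRE core and not at the PAR core. Of these 140, TpG was called lower than CpA for 78 and higher for 8 with CEBPB(V285A) and for 87 and 4 with CREB1(A297V) on methylated DNA. On unmethylated DNA the counts were 63 lower and 5 higher with CEBPB(V285A), 75 and 12 with CREB1(A297V), and 38 and 13 with CREB1. Called in either direction were 45.9%, 48.2%, 47.3%, 48.2% and 50.4% of all 14304 such pairs in the 5 groups, in the same order (the sign in that table depends on the strand read), and 61.4%, 65%, 48.6%, 62.1% and 36.4% of the member pairs. Of 47 CRE members, TpG was lower for 19 and higher for 5 with CEBPB(V285A) and for 22 and 3 with CREB1(A297V) on methylated DNA, and for 20 and 2 with CEBPB(V285A), 12 and 11 with CREB1(A297V), and 17 and 8 with CREB1 on unmethylated DNA. Of 47 C/EBP members it was lower for 12 to 24 and higher for 1 to 3 in the 5 groups. The number called in either direction was close to that of the table for CEBPB(V285A) on unmethylated DNA and below it for CREB1. The counts fell to 56 lower and 1 higher without replicate 1, and 48 and 1 without replicate 2, of CEBPB(V285A) on methylated DNA. On unmethylated DNA they fell to 43 and 1 without replicate 1 of CEBPB(V285A), to 42 and 9 without replicate 2 of CREB1(A297V), and to 28 and 4 or 22 and 7 without replicate 1 or 2 of CREB1.

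At the PAR core TpG was called lower than CpA at most members with either mutant protein, a direction tied to the choice of core as given above. Of its 46 members in this comparison, 35 were lower and 0 higher with CEBPB(V285A) and 41 and 0 with CREB1(A297V) on methylated DNA. On unmethylated DNA 26 were lower and 2 higher with CEBPB(V285A), 40 and 0 with CREB1(A297V), and 9 and 2 with CREB1. The median difference was -3.17 with CREB1(A297V) and -2.0 with CEBPB(V285A) on methylated DNA, and -1.78, -1.26 and -0.29 with CREB1(A297V), CEBPB(V285A) and CREB1 on unmethylated DNA. Among the mixed octamers, tgaTGtaa was higher than its CpA form ttaTGtca by 4.26 ± 1.09 with CREB1(A297V) on methylated DNA (SE, limma adjusted p = 0.00244), with 11.7 ± 1.55 and 7.42 ± 0.544. On unmethylated DNA the difference was 2.00 ± 1.09 (SE, limma adjusted p = 0.134), which did not pass. With CEBPB(V285A) the same difference was -1.20 ± 1.09 and -1.07 ± 1.09 on methylated and unmethylated DNA (SE, limma adjusted p = 0.384 and 0.441), and with CREB1 -0.87 ± 1.09 (SE, limma adjusted p = 0.531). The only call among these 5 groups is lost without replicate 2 of CREB1(A297V) on methylated DNA and with the authors' scores.

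In the fit over all 32896 8-mers, 33 members were called higher and 0 lower with CEBPB(V285A) than with CREB1 on unmethylated DNA, 24 of them at the PAR, 3 at the CRE and 6 at the C/EBP core; 3.67% of all 8-mers were called higher and 2.53% lower. At an unadjusted p below 0.05, 58 members differed in either direction, but the share of all 8-mers at that threshold was not counted. The octamer ttaTGtaa was higher by 12.75 ± 2.36 (SE, limma adjusted p = 0.00406), ttaTGtca by 8.08 ± 1.30 (SE, limma adjusted p = 0.00151) and ttgTGcaa by 4.92 ± 0.41 (SE, limma adjusted p = 2.27e-06). The first of these calls is lost without either CEBPB(V285A) array or without CREB1 replicate 1, and the other 2 are kept whichever array is left out. With the authors' scores the calls at ttaTGtaa and ttaTGtca are lost, while that at ttgTGcaa held under all 10 alternatives. The count itself fell to 10 and 14 without replicate 1 or 2 of CEBPB(V285A), and was 16 after normexp correction and 61 on log2 scores, with 0 lower in each.

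With CREB1(A297V), 9 members were called higher than with CREB1 and 19 lower, which makes 6.25% and 13.2% of the members and is near the 8.13% and 10.8% of all 8-mers. At the PAR core 6 of 48 were higher and 0 lower, at the CRE core 1 was higher and 15 were lower, and at the C/EBP core 2 were higher and 4 lower; the difference between the cores was not tested. The octamer ttaTGtaa was higher by 8.64 ± 2.36 (SE, limma adjusted p = 0.0155) and tgaTGtca lower at a difference of -4.64 ± 1.43 (SE, limma adjusted p = 0.0286). The CRE member gtgaTGtg had 0.81 and 1.60 with CREB1(A297V) and 3.54 and 4.36 with CREB1, a difference of -2.74 ± 0.51 (SE, limma adjusted p = 0.00112). The call at ttaTGtaa is lost without either CREB1 array, and that at tgaTGtca without CREB1 replicate 2, CREB1(A297V) replicate 1 or methylated CEBPB(V285A) replicate 1. These calls and that at gtgaTGtg are lost with the authors' scores. Without CREB1 replicate 2 the counts were 2 higher and 10 lower. They were 1 and 18 on log2 scores, 2 and 10 with the authors' scores, and 9 and 7 without the local window. These 4 arrays share the identifier in the names of their tables.

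Between the mutant proteins, more TpG sites were called higher with CEBPB(V285A) than with CREB1(A297V) in both DNA states, and fewer lower. On methylated DNA 59 members were called higher and 1 lower, against 6.75% higher and 5.49% lower of all 8-mers, and on unmethylated DNA 55 higher and 3 lower, against 14.1% and 11.5%. By core, 26 CRE members were higher and 1 lower, 26 and 0 at the PAR and 7 and 0 at the C/EBP core on methylated DNA, and 28 and 1, 17 and 0, and 10 and 2 on unmethylated DNA. Both C/EBP members that were lower are given here because they go against the majority, and were chosen after their values were seen: ttgTGctc differed by -1.24 ± 0.27 (SE, limma adjusted p = 0.00228) and aattgTGc by -1.47 ± 0.30 (SE, limma adjusted p = 0.00148). Their calls are kept with each array left out, but that at aattgTGc is lost with the authors' scores. The identifier in the names of the tables differs between these proteins on unmethylated DNA and cannot be told apart from that comparison. On methylated DNA the identifier is shared, but the positions of the probes differ. There 100% of the probes of the CEBPB(V285A) arrays and 0% of those of the CREB1(A297V) arrays lay where they lie on the first array. Position on the array thus cannot be told apart from the protein on methylated DNA. The PAR core with the CRE ending, ttaTGtca, was higher by 7.24 ± 1.30 on methylated DNA (SE, limma adjusted p = 0.00117) and by 7.99 ± 1.30 on unmethylated DNA (SE, limma adjusted p = 0.000237). Its call on unmethylated DNA is lost with the authors' scores. The C/EBP octamer ttgTGcaa was higher by 4.80 ± 0.41 and by 4.54 ± 0.41 (SE, limma adjusted p = 4.82e-07 and 1.71e-06). The methylated count fell to 35 higher without replicate 1 and 39 without replicate 2 of CEBPB(V285A), and to 34 and 33 without replicate 1 and 2 of CREB1(A297V), with 0 lower; it was 37 and 0 without the local window and 95 and 3 on log2 scores. The unmethylated count fell to 34 higher and 2 lower without replicate 1 of CEBPB(V285A).

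The cost of losing the CpG also differed between proteins, when the gaps themselves were compared. For CEBPB(V285A) minus CREB1, 1 of 144 gaps was called higher (nearer to 0) and 10 lower (deeper), against 2.25% and 0.886% of all pairs. The higher one was the CRE octamer, whose gap was -11.20 with CEBPB(V285A) and -21.64 with CREB1, a difference of 10.44 ± 2.26 (SE, limma adjusted p = 0.0131). Of the 10 lower ones 9 belong to the C/EBP core, led by ttgTGcaa with a difference of -8.91 ± 0.97 (SE, limma adjusted p = 9.95e-06). The split depends on the scale: it was 60 higher and 9 lower after normexp background correction, 54 and 10 after quantile normalization, 0 and 46 on log2 scores not divided by the array's spread, and 0 and 21 with the authors' deposited scores. It was 0 and 3 without replicate 1 of CEBPB(V285A), 1 and 5 without replicate 2, and 1 and 17 without either unmethylated CREB1(A297V) array. The call at tgaTGtca is lost on the log2 scores, with the authors' scores, with another variance trend, and without CEBPB(V285A) replicate 1 or CREB1 replicate 2. That at ttgTGcaa held under all 10 alternatives and with each array left out.

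With CREB1(A297V) the gaps were smaller than with CREB1. Of 144, 80 were called higher and 1 lower, 47 of them at the CRE and 30 at the PAR core, against 15.9% higher and 3.89% lower of all pairs. The CRE member gtgaTGta had 1.20 ± 0.342 in its TpG form and 9.32 ± 3.20 in its intact form with CREB1(A297V), against 3.17 ± 0.0281 and 25.3 ± 2.35 with CREB1, and its gaps differed by 13.96 ± 1.74 (SE, limma adjusted p = 4.70e-06). The call at gtgaTGta is lost with another variance trend. The narrow range of the unmethylated CREB1(A297V) arrays moves with these smaller gaps, and its part was not tested.

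M.SssI acts on CpG, and 130 of the 144 members hold none, while 14 have a CpG in their flank; the probes around them can hold CpG elsewhere. With CEBPB(V285A), 18 members were called higher on methylated than on unmethylated DNA and 0 lower, where 3.84% and 3.73% of all 8-mers were, and 10 of the 18 belong to the PAR core. The CRE member tgaTGtga had 4.43 and 5.05 on methylated and 2.68 and 2.23 on unmethylated DNA, higher by 2.28 ± 0.37 (SE, limma adjusted p = 0.00246), and ttgTGcaa was higher by 2.12 ± 0.41 (SE, limma adjusted p = 0.00605). The call at tgaTGtga held under all 10 alternatives and with each array left out, while that at ttgTGcaa is lost without CEBPB(V285A) replicate 1 or 2 on unmethylated or replicate 1 on methylated DNA. The count rests on single arrays: it was 1 and 5 without replicate 1 or 2 on methylated DNA, 1 and 3 without replicate 1 or 2 on unmethylated DNA, and 79 higher and 3 lower on log2 scores.

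With CREB1(A297V), 18 members were higher and 7 lower on methylated DNA, where 10.4% and 11.1% of all 8-mers were. The CRE octamer tgaTGtca was higher by 4.47 ± 1.43 (SE, limma adjusted p = 0.0313) and ttgTGcaa by 1.86 ± 0.41 (SE, limma adjusted p = 0.00419), and the PAR member cttaTGtt was lower at a difference of -1.39 ± 0.31 (SE, limma adjusted p = 0.00447). Without replicate 1 or 2 on methylated DNA the counts were 7 higher and 1 lower or 3 and 3. They were 44 and 3 on log2 scores, 8 and 9 after normexp correction, 8 and 0 with the authors' scores, and 2 and 2 without the local window. The call at tgaTGtca is lost without 5 of the 10 arrays taken singly, and that at ttgTGcaa without replicate 2 on methylated DNA. These calls and that at cttaTGtt are lost without the local window and with the authors' scores. On the methylated CREB1(A297V) arrays 0% of the probes lay where they lie on the first array, so position on the array cannot be told apart from this group. The 14 members with a CpG in the flank had median differences of 0.17 and 0.27 with CEBPB(V285A) and CREB1(A297V), and the 130 without had 0.41 and 0.27.

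With CEBPB(V285A), 49 of 144 gaps between TpG and CpG were called higher (nearer to 0) on methylated than on unmethylated DNA and 6 lower, against 7.97% and 2% of all pairs. Of the 48 gaps of each core, 42 were higher and 0 lower at the CRE, 6 and 0 at the PAR and 1 and 6 at the C/EBP core. The member gtgaTGta had 4.50 ± 0.484 as TpG and 11.9 ± 0.456 as methylated CpG, against 4.21 ± 0.327 and 21.1 ± 1.85 on unmethylated DNA, so that its gap differed by 9.48 ± 1.74 (SE, limma adjusted p = 0.00158) while its TpG form moved by less than its spread. That call and the one at ttgTGcga below are lost without replicate 1 on methylated DNA. The call at gtgaTGta is also lost after normexp correction and with another variance trend. Without replicate 1 or 2 on methylated DNA the counts were 28 higher and 2 lower or 20 and 4, and without replicate 1 on unmethylated DNA 17 and 2. They were 15 and 3 after normexp correction and 48 and 23 on log2 scores. The lower gaps were all at the C/EBP core, such as ttgTGcga, whose intact form had 4.56 ± 0.649 on methylated and 2.00 ± 0.104 on unmethylated DNA and whose gap differed by -2.50 ± 0.49 (SE, limma adjusted p = 0.00268).

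For CREB1(A297V), 24 of 144 gaps were called lower and 1 higher on methylated DNA, against 4.86% lower and 8.52% higher of all pairs. Of the 24, 19 belong to the PAR core, 4 to the CRE and 1 to the C/EBP core, so most gaps were not called. The member cattaTGt had 0.892 ± 0.153 as TpG and 12.3 ± 0.875 as methylated CpG, against 1.94 ± 0.738 and 6.10 ± 1.95 on unmethylated DNA, and its gap differed by -7.23 ± 1.04 (SE, limma adjusted p = 0.000367). The call at cattaTGt is lost after normexp correction. The counts were 10 lower and 0 higher without replicate 1 and 4 and 0 without replicate 2 on methylated DNA, and 10 and 1 without replicate 1 on unmethylated DNA. They were 4 and 1 after normexp correction, 10 and 1 after quantile normalization, 7 and 0 with the authors' scores, and 72 and 1 on log2 scores. The narrow range of the unmethylated CREB1(A297V) arrays moves with this comparison too, and its part was not tested. Whether the change with methylation differed between CEBPB(V285A) and CREB1(A297V) was not tested.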

How the data were processed

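Each of the 10 arrays has a deposited table that holds, per the file headers, the median signal intensity and median background intensity of each of 40330 spots, not background-subtracted. A deposited matrix by the authors gives their own Z-score for each 8-mer and served as an alternative; its steps are not given in the sources used here. From the spot signals, log2 signal was lowered by the median of a window of 15 by 15 spots, each 8-mer received the median of its probes (15 to 42, at least 8 required), and each array's scores were centred on their median and scaled by the median absolute deviation times 1.4826 (Python 3.11.15, numpy 2.4.6, pandas 2.3.3).

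TpG minus CpG differences of 28672 pairs, TpG minus CpA differences of 14304 pairs and levels of 32896 8-mers were fitted in R 4.3.3 with limma 3.58.1: a coefficient per group over all 10 arrays, 5 residual degrees of freedom, eBayes with a variance trend (on the mean Z for levels and on log2 of 1 plus the mean Z of a pair for differences), two-sided, Benjamini-Hochberg over each table, called below 0.05. There were 20 comparisons. The scoring and the fits of TpG minus CpG differences and of levels were tested on simulated data. In the simulated fits the noise was independent, unlike that of 8-mers that share probes. The fit of levels was tested there with a variance trend on a log2 scale, not with the trend used for the results. Members, lists and tests were chosen with earlier results of these data known. The 8-mers named are the TpG cores with the endings of the 3 octamers, the 3 strongest members per core and group, and the 3 lowest and 3 highest called differences per comparison. Alternatives were normexp with an offset of 50, no window, log2 scores without division by the spread, quantile normalization, dim probes left out, probes with an intact core left out, the authors' scores, other variance trends, a replicate block, and each array left out. The number of arrays limits the precision.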

Additional observations from a re-analysis of the deposited data

Results flagged for a closer look

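The differences below were marked because the effect of turning CpG into TpG was not the same in 2 groups of arrays, by limma's test of the difference between the gaps. For CEBPB(V285A) minus CREB1 on unmethylated DNA the gap differed by 10.44 at tgaTGtca, -3.80 at ggttaTGt, -8.91 at ttgTGcaa, -2.75 at ttgTGcca and -2.75 at gttgTGca. For CREB1(A297V) minus CREB1 it differed by 11.63 at tgaTGtca, 13.14 at tgaTGtgg, 13.96 at gtgaTGta, 13.99 at gtgaTGtc and -1.75 at ttgTGcga.

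For methylated minus unmethylated DNA with CEBPB(V285A) the gap differed by 9.48 at gtgaTGta, 9.23 at gtgaTGtc, 9.02 at tgtgaTGt, -2.50 at ttgTGcga, -2.90 at cgttgTGc and -2.49 at tattgTGc. With CREB1(A297V) it differed by -6.80 at attaTGta, -6.43 at aattaTGt, -7.23 at cattaTGt and 1.45 at acttgTGc.

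In a further set every array of a group lay on the opposite side of 0 from every array of the other group, and the difference between the groups was not tested. For tgaTGtaa minus its CpA form the means were -1.20 with CEBPB(V285A) and 4.26 with CREB1(A297V) on methylated DNA, and -1.07, 2.00 and -0.87 with CEBPB(V285A), CREB1(A297V) and CREB1 on unmethylated DNA. For the TpG minus CpG gap the means with CEBPB(V285A) and CREB1(A297V) were -0.92 and 0.79 at ttgTGcgc and -0.45 and 0.69 at ttgTGctc on unmethylated DNA, and -0.45 and 0.52 at ttgTGctc and -0.55 and 0.20 at tttgTGcg on methylated DNA.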

How the results depend on the processing

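Of the 20 counts of called members, all stayed within 1.5 times their value when dim probes were left out, when probes with an intact core were left out, without a variance trend, and with a replicate block. Replicate numbers were not used to pair the arrays in the main fits. The deviations of same-numbered arrays correlated between -0.213 and 0.333. The highest value was between CREB1 and CREB1(A297V) on unmethylated DNA, whose tables share an identifier. Nothing says that a number marks a shared batch, so whether the arrays are paired is not settled. With the replicate block the TpG minus CpG counts were 0 higher and 130 lower with CEBPB(V285A) on methylated DNA and 1 and 131 on unmethylated DNA. Counts below are over both directions.

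For the gaps between TpG and CpG, CREB1(A297V) on unmethylated DNA had 63 calls on log2 scores not divided by the spread and 20 with the authors' scores, and on methylated DNA 57 with the authors' scores. CEBPB(V285A) minus CREB1 had 69 after normexp, 5 without the local window, 46 on log2 scores, 64 after quantile normalization and 21 with the authors' scores. Methylated minus unmethylated with CEBPB(V285A) had 18 after normexp and 29 with another variance trend. With CREB1(A297V) it had 5 after normexp, 73 on log2 scores, 11 after quantile normalization, 7 with the authors' scores and 16 with another trend. TpG minus CpA on unmethylated DNA had 55 on log2 scores and 41 with the authors' scores for CREB1(A297V), and 29 with the authors' scores for CREB1.

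For levels, CEBPB(V285A) minus CREB1 had 16 calls after normexp and 61 on log2 scores, and CREB1(A297V) minus CREB1 had 16 without the local window and 12 with the authors' scores. CEBPB(V285A) minus CREB1(A297V) on methylated DNA had 37 without the window and 98 on log2 scores. Methylated minus unmethylated had 3 without the window, 82 on log2 scores and 11 after quantile normalization with CEBPB(V285A), and 4 without the window, 47 on log2 scores and 8 with the authors' scores with CREB1(A297V).

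Leaving out each array in turn gave TpG minus CpG counts on methylated DNA of 120 to 132 with CEBPB(V285A) and 80 to 110 with CREB1(A297V), and 124 to 135, 39 to 100 and 112 to 124 with CEBPB(V285A), CREB1(A297V) and CREB1 on unmethylated DNA. Differences between gaps gave 3 to 18 for CEBPB(V285A) minus CREB1, 61 to 91 for CREB1(A297V) minus CREB1, and 19 to 64 and 4 to 35 for methylation with CEBPB(V285A) and CREB1(A297V). TpG minus CpA gave 49 to 92 and 65 to 99 on methylated DNA, and 44 to 74, 51 to 91 and 29 to 55 on unmethylated DNA, in the same order of proteins. Levels gave 10 to 42 for CEBPB(V285A) minus CREB1, 12 to 29 for CREB1(A297V) minus CREB1, 33 to 67 and 36 to 66 for CEBPB(V285A) minus CREB1(A297V) on methylated and unmethylated DNA, and 1 to 23 and 6 to 26 for methylation.

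Of 109 named results, 55 lost their call with the authors' scores, 25 without the local window, 23 with another variance trend, 14 after normexp, 12 on log2 scores, 5 after quantile normalization and 4 with the replicate block. Signs turned for ggttaTGt in CEBPB(V285A) minus CREB1 after normexp (0.33), for atttgTGc with CREB1 without the window (-0.0244), and for tgaTGtaa minus its CpA form with CEBPB(V285A) on methylated DNA with the authors' scores (1.96), a difference that was not called to begin with. The cause was not tested for any of these. With 2 arrays per group and signal over background of 1.79 to 5.10, weak members are not well separated from the array median.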
